A study of Mus musculus with 6 samples.

Results

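Adipokines are proteins that fat cells release into blood and tissue, and the gland of a young mouse lies in a pad of such cells. The genes described here are 4 secreted factors, Adipoq, Lep, Retn and Agt, and 3 receptors, Lepr, Adipor1 and Adipor2. They were taken as every probe set, a group of short array probes for the same transcript, whose only gene symbol in the platform annotation is one of these 7. That gave 13 of 45037 probe sets. RNA came from mammary glands of female bitransgenic mice at 10 weeks and at 5 weeks of age, from a cross of the LH mouse with the MMTV-neu mouse. All pools carry both transgenes, the labels do not spell out LH, and MMTV-neu mice express the neu (Erbb2) oncogene from a viral promoter that is active mainly in mammary epithelium. No mice without the transgenes were analysed here, so every comparison is of age within this cross. An array was hybridised with RNA pooled from 3 animals, and the 3 arrays of an age thus stand for 9 animals.

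Leptin, made from Lep, reports the size of the fat stores to the brain through the leptin receptor, a cytokine receptor that activates JAK2 and STAT3 and is also present outside the brain. Adiponectin, made from Adipoq, acts through the membrane proteins encoded by Adipor1 and Adipor2, which turn on AMP-activated kinase and lower cellular ceramides. Retn encodes resistin, which in mice is made by fat cells and impairs the response to insulin. Agt encodes angiotensinogen, the precursor that renin and angiotensin-converting enzyme cut into angiotensin II, and fat is one of its sources beside the liver.

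The signals were linear intensities with array medians of 157.0 to 166.7 at 10 weeks and 156.4 to 172.5 at 5 weeks. With 6 arrays, precision is limited throughout. Across all probe sets, log2 signals correlated at 0.973 to 0.978 between pools of one age and at 0.932 to 0.955 between ages. Pool 1 at 10 weeks stood apart in skeletal muscle transcripts, where the mean log2 signal of 12 marker genes was 8.67, against 11.83 and 11.75 in the other 10-week pools and 12.24 to 13.40 in the 5-week pools. Pool 2 at 5 weeks had the highest mean of 8 B and T cell genes, 9.09, where the other pools had 7.16 to 8.24. Nothing in the labels says how the pools of an age were assembled, so p-values measure the spread between pools only.

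The promoters of the 3 genes that passed the test for a difference with age, and that of Adipor1, whose signals did not fall beside those of Adipor2, are shown first. Each line gives the 250 bases before a transcript start of RefSeq on GRCm38.p6, in the direction of the gene. For Agt this is chr8:124569707-124569956 on the minus strand, for Lep chr6:29059971-29060220 on the plus strand, for Adipor2 chr6:119388735-119388984 on the minus strand, inside the annotated span of that gene, and for Adipor1 chr1:134415128-134415377 on the plus strand. Capitals mark matches, on either strand, to the TATA box TATAAA, the CCAAT box, a C/EBP-type motif TTGCNNAA, the GC box GGGCGG or the STAT palindrome TTCNNNGAA.
Agt: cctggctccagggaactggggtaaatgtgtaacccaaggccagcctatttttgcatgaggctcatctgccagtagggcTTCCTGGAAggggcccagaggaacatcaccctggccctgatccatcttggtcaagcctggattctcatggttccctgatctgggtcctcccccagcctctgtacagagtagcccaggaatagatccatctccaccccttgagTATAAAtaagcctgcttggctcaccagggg
Lep: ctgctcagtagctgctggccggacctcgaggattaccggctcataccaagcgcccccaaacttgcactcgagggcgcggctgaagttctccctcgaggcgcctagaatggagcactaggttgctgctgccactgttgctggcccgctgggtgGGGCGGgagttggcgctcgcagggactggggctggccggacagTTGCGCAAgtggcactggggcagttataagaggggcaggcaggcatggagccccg
Adipor2: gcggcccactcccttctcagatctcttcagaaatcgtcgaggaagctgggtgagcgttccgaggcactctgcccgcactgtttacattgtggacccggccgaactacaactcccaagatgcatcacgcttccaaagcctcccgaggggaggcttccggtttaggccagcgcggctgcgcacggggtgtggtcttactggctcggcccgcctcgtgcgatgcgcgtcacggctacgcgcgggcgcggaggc
Adipor1: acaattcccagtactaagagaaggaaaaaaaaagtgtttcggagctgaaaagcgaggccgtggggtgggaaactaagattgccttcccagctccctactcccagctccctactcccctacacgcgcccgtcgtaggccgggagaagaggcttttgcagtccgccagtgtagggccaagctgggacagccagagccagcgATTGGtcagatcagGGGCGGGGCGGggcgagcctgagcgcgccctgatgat
The Agt promoter holds TATAAA at -30 to -25 from the start, a motif found in 12.4% of 32851 such windows of mouse genes. It also holds TTCNNNGAA at -172 to -164, which 7.02% of the windows have. The Lep promoter holds TTGCNNAA at -55 to -48 (9.56% of windows) and GGGCGG at -98 to -93 (32.7%). The Adipor1 window holds CCAAT on the other strand at -51 to -47 (33.8% of windows) and GGGCGG at -37 to -32 and at -32 to -27, a pair that overlaps by a base. The Adipor2 window holds none of the 5 motifs. G and C make up 55.6% of the Agt window, 65.6% of the Lep window, 64.8% of the Adipor2 window and 59.6% of the Adipor1 window, against a median of 52.4% over all windows. Another Adipor1 start of RefSeq, with its window at chr1:134415414-134415663, is not shown. That window has 2 GGGCGG matches, no CCAAT match and 79.2% G and C. These matches describe the letters and are not shown to be bound.

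At 10 weeks angiotensinogen, leptin and adiponectin receptor 2 transcripts were lower than at 5 weeks, while those of adiponectin, resistin and adiponectin receptor 1 did not pass the test. Of the 13 probe sets, 10 passed a filter that left out the dimmest 40% of the array, and 3 of the 4 Lepr probe sets fell under it. Differences are of log2(signal + 32), 10 weeks minus 5 weeks, tested with limma over 27022 probe sets at a Benjamini-Hochberg adjusted p of 0.05. Among the 10, 4 fell, Agt among them, and none rose (6 and 0 at an unadjusted p under 0.05), where 29.0% of all probe sets tested passed in either direction, 15.5% lower and 13.5% higher. At an unadjusted p under 0.05, 11025 of the 27022 probe sets passed in either direction. The median difference of the 10 was -0.35, against 0.01 for all probe sets tested. The ages did not overlap for 7 of the 10, lower at 10 weeks for 6 and higher for 1, where 45.3% of all probe sets tested did not overlap, 22.8% lower and 22.5% higher.

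**Figure D1:**
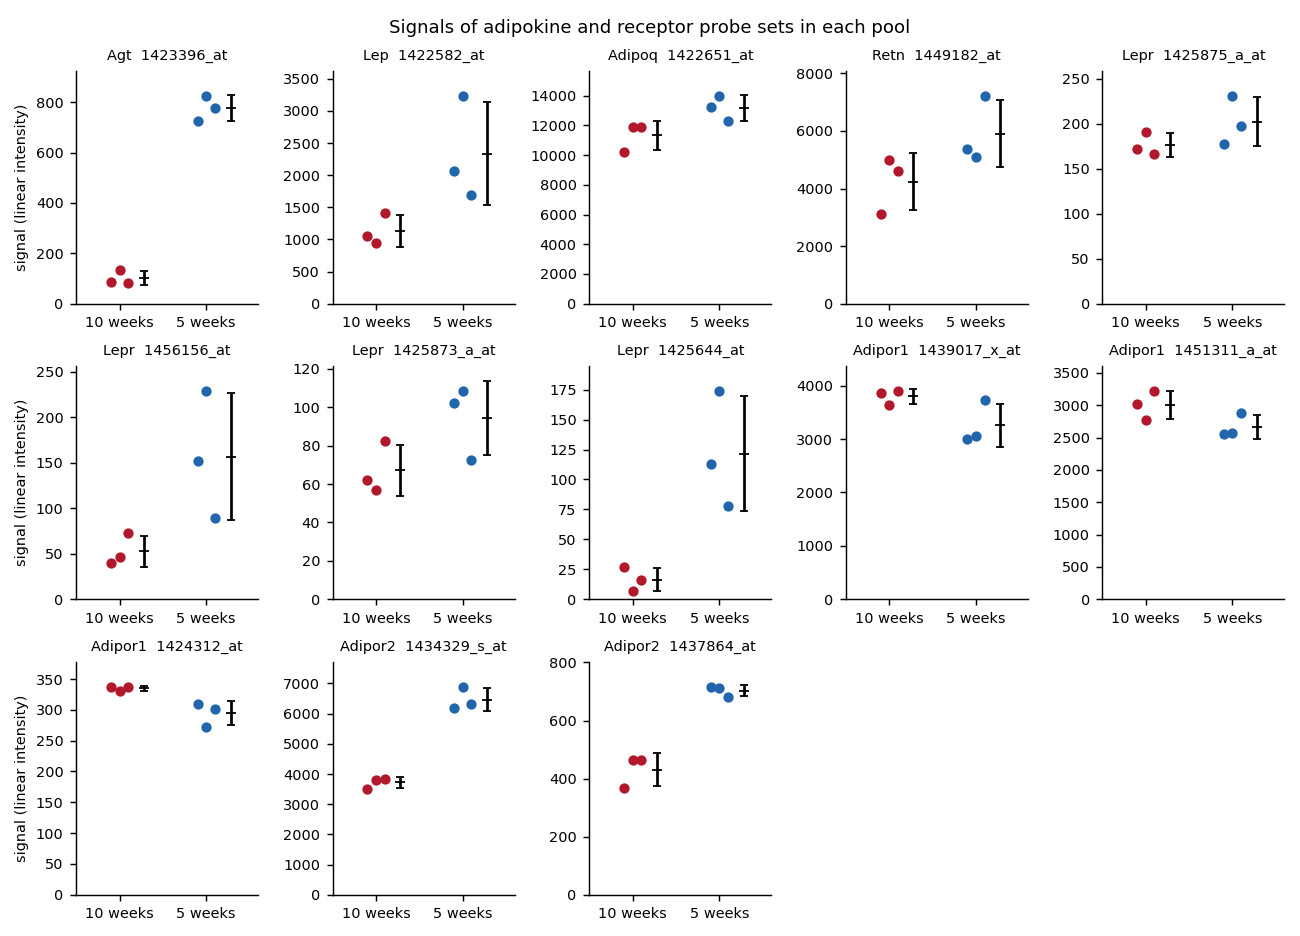
Linear signal intensity (vertical axis, from 0) of each of the 13 probe sets in the 3 pools at 10 weeks (red, left) and the 3 at 5 weeks (blue, right), with mean and SD in black. Agt lies at 81.2 to 132.0 at 10 weeks and at 725.7 to 825.9 at 5 weeks, while for 2 of the 3 panels of Adipor1 the ages overlap.

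Angiotensinogen showed the largest difference of the 7 genes. Agt (probe set 1423396_at) had signals of 87.6, 132.0 and 81.2 in the 10-week pools, against 725.7, 825.9 and 778.5 in the 5-week pools. The ages were far apart and the pools of an age close together. The means were 100.3 ± 27.7 in 10-week pools, against 776.7 ± 50.1 in 5-week pools (SD, n = 3 each). The log2 difference was -2.63 ± 0.17 (SE, adjusted p = 4.76e-05). The 10-week mean is below 107, the mean signal of the dimmest probe set that the filter kept, so Agt was tested because of its 5-week signals. Without a filter it still passed (adjusted p = 0.000211). No detection calls were used here, and whether the 10-week signals lie above background was not tested, so the size of the difference is uncertain. It was -2.97 with an offset of 1.

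Leptin was also lower. Lep (1422582_at) had signals of 1049.0, 942.5 and 1417.5 at 10 weeks, against 2071.7, 3238.6 and 1698.3 at 5 weeks. All 10-week pools lay under all 5-week pools, but the 5-week pools spread widely, with pool 2 the highest. The means were 1136 ± 249 in 10-week pools, against 2336 ± 804 in 5-week pools (SD, n = 3 each), and the log2 difference was -0.99 ± 0.23 (SE, adjusted p = 0.0136). The call ended without 10-week pool 2 (-0.87, adjusted p = 0.0504), and over all alternatives that kept the design the adjusted p ran from 0.00931 to that value.

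Adiponectin is an abundant secreted product of fat cells, and its transcript was near the top of the signal range at both ages. Adipoq (1422651_at) had signals of 10210.7, 11882.6 and 11874.7 at 10 weeks, against 13272.1, 14005.7 and 12266.6 at 5 weeks. The ages did not overlap, but the gap between the nearest pools was small. The log2 difference was -0.22 ± 0.09 (SE, 95% interval -0.43 to -0.01) and missed the threshold (adjusted p = 0.111). With quantile normalization, which gives all arrays the same distribution, it was -0.38 and passed (adjusted p = 0.0106). Only 0.4% of probe sets were brighter, and the brightest signal of an array was 19916.9 to 22312.4 at 10 weeks and 15339.6 to 20275.8 at 5 weeks. Whether such bright signals are compressed was not tested.

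Resistin had the same direction with more spread. Retn (1449182_at) had signals of 3118.8, 4995.6 and 4612.2 at 10 weeks, against 5374.7, 5112.7 and 7228.2 at 5 weeks. The ages did not overlap, with 10-week pool 2 just under 5-week pool 2. The log2 difference was -0.49 ± 0.19 (SE, 95% interval -0.92 to -0.05) and missed the threshold (adjusted p = 0.089). Without 10-week pool 1, the lowest, it was -0.28, and without 5-week pool 3, the highest, it was -0.33.

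**Figure D2:**
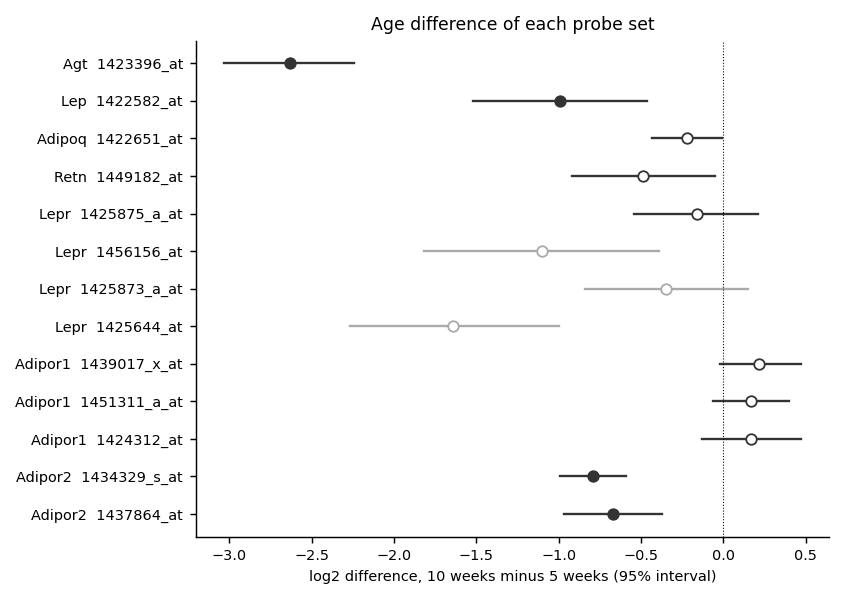
Log2 difference of each probe set, 10 weeks minus 5 weeks (horizontal axis), with its 95% interval from limma. Filled points passed the test, open black points did not, and grey points were under the filter and show the fit without it. The filled points are Agt at -2.63, Lep at -0.99 and Adipor2 at -0.79 and -0.67.

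The adiponectin receptors gave unlike values. Adipor2 fell on both of its probe sets. On 1434329_s_at, whose suffix marks probes shared by several transcripts, its signals were 3513.3, 3797.7 and 3844.9 at 10 weeks, against 6185.8, 6892.9 and 6309.2 at 5 weeks. The dimmer 1437864_at had 366.2, 462.3 and 464.7 at 10 weeks, against 716.5, 711.6 and 680.3 at 5 weeks. On each probe set the ages were well separated, and 10-week pool 1 was the lowest. The log2 differences were -0.79 ± 0.09 (SE, adjusted p = 0.000379) and -0.67 ± 0.13 (SE, adjusted p = 0.00573).

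Adipor1 had 3 probe sets, none of which passed the test. On 1439017_x_at, whose suffix marks probes that may bind other transcripts, the signals were 3862.8, 3642.3 and 3899.3 at 10 weeks, against 3005.2, 3059.7 and 3727.9 at 5 weeks. The ages overlapped only through 5-week pool 3. The log2 difference was 0.22 ± 0.11 (SE, 95% interval -0.02 to 0.47, adjusted p = 0.151), and without 5-week pool 3 it was 0.32 and passed (adjusted p = 0.0404). The other probe sets, 1451311_a_at and 1424312_at, each had a difference of 0.17, with adjusted p = 0.247 and 0.364. For 1424312_at the 10-week signals, 330.4 to 337.6, lay above the 5-week signals, 272.5 to 309.3. The intervals of the 3 probe sets reach from -0.13 to 0.47 and each includes 0.

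The receptors were also compared within each pool, where any scaling of an array cancels nearly in full. The log2 ratio of Adipor2 (1434329_s_at) over Adipor1 (1439017_x_at) was -0.14, 0.06 and -0.02 at 10 weeks, against 1.03, 1.16 and 0.75 at 5 weeks. This ratio describes unequal change between ages, not which receptor was more abundant. Its difference was -1.02, without overlap, and an exact permutation test gave p = 0.1, two-sided, the smallest that 3 against 3 pools allow. The other pair, 1437864_at over 1451311_a_at, gave -0.84, also without overlap (exact p = 0.1). These ratios, 8 in all and chosen after the values were seen, had a Benjamini-Hochberg adjusted exact p of 0.133 for each one that did not overlap.

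The leptin receptor gave different answers on different probe sets. Its brightest, 1425875_a_at, had signals of 171.8, 191.4 and 166.1 at 10 weeks, against 177.8, 231.4 and 198.0 at 5 weeks. The ages overlapped, and the log2 difference of -0.16 ± 0.16 (SE, 95% interval -0.54 to 0.21) missed the threshold (adjusted p = 0.486). The other 3 were under the filter, described for Agt. Of these, 1456156_at was just outside with a mean of 105, while 1425875_a_at, at 189, was the dimmest member inside.

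Lepr probe set 1425644_at had signals of 26.5, 7.1 and 15.8 at 10 weeks, against 113.0, 173.8 and 78.2 at 5 weeks. Lepr probe set 1456156_at had 40.4, 46.0 and 72.4 at 10 weeks, against 152.5, 228.9 and 89.4 at 5 weeks. On both the ages did not overlap, and 5-week pool 2 was the highest, as it was for Lep. In the fit without a filter, where 16.3% of 45037 probe sets passed, their differences were -1.64 ± 0.28 (SE, adjusted p = 0.0063) and -1.10 ± 0.31 (SE, adjusted p = 0.047). The remaining one, 1425873_a_at, had signals of 56.8 to 82.3 at 10 weeks and 72.4 to 108.4 at 5 weeks, which overlapped, with a difference of -0.35 ± 0.22 (SE, adjusted p = 0.336 without a filter).

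The 10-week signals of 1425644_at lie below the offset of 32, which therefore sets much of the size of its difference and of its ratio to 1425875_a_at. The suffix _a_at marks probes that match several transcripts of a gene. The tables used here do not say which receptor isoform each probe set reads. Leprot, an endosomal protein gene known in humans to share its promoter with the leptin receptor gene, had a difference of 0.11 (adjusted p = 0.446).

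**Figure D3:**
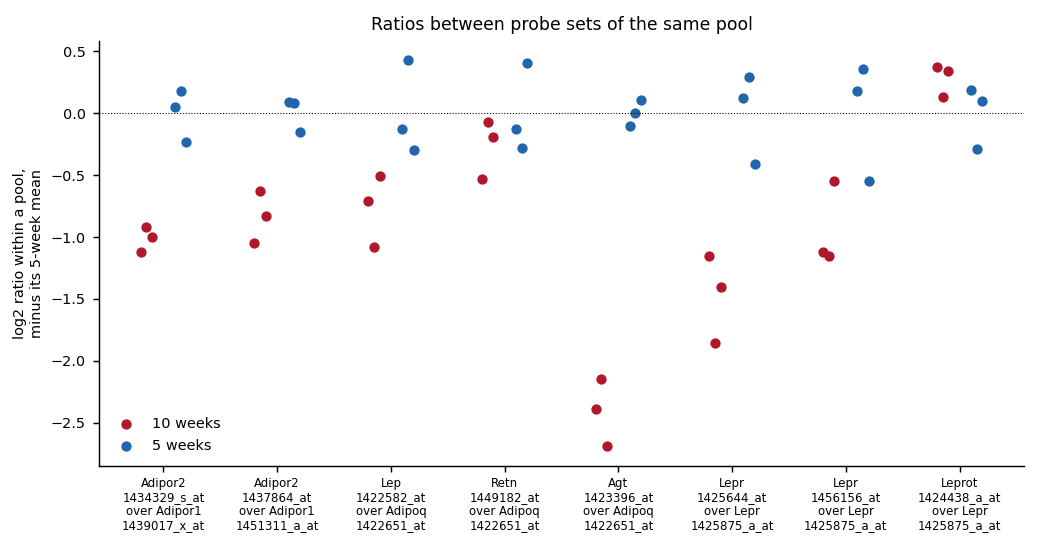
Log2 ratio of pairs of probe sets within each pool, less its 5-week mean (vertical axis), for pools at 10 weeks (red, left of each pair) and 5 weeks (blue). The ratio of Agt over Adipoq is lower by a difference of -2.41 and that of Adipor2 over Adipor1 by -1.02 and -0.84, while Retn over Adipoq overlaps. The ratios with Lepr 1425644_at and 1456156_at rest on dim signals, and the offset sets much of their size.

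Set against adiponectin in the same pool, the secreted factors also differed from each other. The ratio of Lep over Adipoq had a difference of -0.77 and that of Agt over Adipoq one of -2.41, both without overlap (exact permutation p = 0.1 each). The ratio of Retn over Adipoq differed by -0.27 and overlapped (exact p = 0.5).

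Part of the fat cell markers fell as well, and others did not. In whole glands, fewer cells of a type and less RNA per cell cannot be told apart. Of 14 adipocyte markers measured, 8 fell and none rose (9 and 1 at an unadjusted p under 0.05 by limma), with a median of -0.74 against -0.01 over all 13035 genes, of which 34.5% passed, 19.0% lower and 15.5% higher. At an unadjusted p under 0.05 by limma, 6013 of the 13035 genes passed in either direction. The summed signal of the 14 markers was 94713 to 111539 at 10 weeks and 108782 to 139586 at 5 weeks, and none was near 0. The lipid droplet genes Cidec and Plin4 fell by 1.44 and fell by 1.24, while Fabp4, Lpl, Car3 and Thrsp, all very bright, had differences of -0.04, 0.06, -0.03 and 0.00. Cd36, also bright, was higher at 10 weeks without overlap (0.25) but did not pass (adjusted p = 0.0803 by limma). The mean log2 signal of the 14 was 11.68, 11.92 and 12.17 in the 10-week pools, against 12.48, 12.79 and 12.52 in the 5-week pools. Pool 2 at 5 weeks was the highest here, as it was for Lep, Adipoq, Agt, Adipor2 1434329_s_at and the 4 Lepr probe sets.

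Relative to that mean in the same pool, Agt remained lower at 10 weeks without overlap, by a log2 difference of -1.96. Lep overlapped (-0.31), as did both probe sets of Adipor2 (-0.12 and 0.00) and Retn (0.19). Adipoq was higher relative to the markers at 10 weeks without overlap (0.45), and so were the 3 probe sets of Adipor1 (0.84 to 0.90). These values depend on which markers make the mean, which differed by -0.67. Adipoq itself differed by -0.22, and the bright markers Fabp4, Lpl, Car3 and Thrsp by -0.04 to 0.06. With the mean as a covariate in limma, the differences were -2.61 for Agt (adjusted p = 0.0626), -0.04 for Lep and -0.57 and -0.37 for Adipor2. Adipoq changed sign, from -0.22 to 0.07 (adjusted p = 0.912 by limma). None of the 10 member probe sets passed (2 at an unadjusted p under 0.05 by limma). Since the mean did not overlap between ages, this fit can hardly separate it from age, and only 54 of 27022 probe sets passed in it.

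Markers of other cells moved as well. Beside the shares of all genes given above, of 11 genes of adipose progenitors and fibroblasts 9 fell and 1 rose, and of 8 endothelial genes 7 fell and none rose (7 and 0 unadjusted, limma). Of 9 luminal epithelial genes, 8 rose and none fell (9 and 0 unadjusted), but without a filter 6 rose, and without 1 pool 6 to 9. Of 8 genes typical of brown adipocytes, 6 fell and none rose (6 and 0 unadjusted), but without a filter 2 fell, and without 1 pool 2 to 5. The call of Ucp1, which defines these cells, ended without a filter (adjusted p = 0.0918). The list had summed signals of 18046 to 28935 at 10 weeks and 24918 to 41286 at 5 weeks, highest in 5-week pool 2. Of 8 basal epithelial genes 4 rose and 2 fell, and of 9 macrophage genes 3 rose and 3 fell (1 and 2 without a filter). In the skeletal muscle list, 4 of 12 fell and none rose (11 and 0 unadjusted), with 1 lower without a filter and 0 to 8 without 1 pool, 0 without 5-week pool 1 or pool 3. The summed signals of the luminal list were 61400 to 70958 at 10 weeks and 32648 to 41967 at 5 weeks, and those of the progenitor list were 40770 to 47072 at 10 weeks and 65159 to 75501 at 5 weeks. With the muscle mean as a covariate, Lep had a difference of -1.08 and no longer passed (adjusted p = 0.0807), nor did Adipor2 1437864_at (-0.48, adjusted p = 0.127), while Agt and Adipor2 1434329_s_at still did. Retn, which passed in neither fit, went from -0.49 to -0.02 with this covariate (adjusted p = 0.95 by limma). The part of these cells in the differences of Lep, Agt, Adipor2 and Retn was not tested further.

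**Figure D4:**
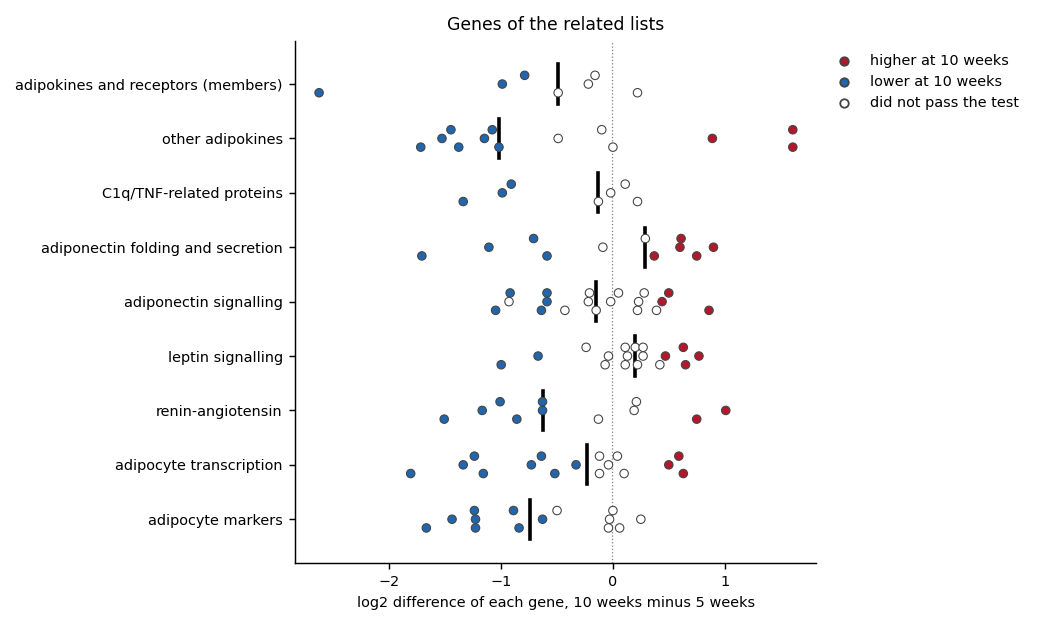
Log2 difference of each gene, 10 weeks minus 5 weeks (horizontal axis), by list; red and blue points passed the test as higher and lower, white ones did not, and black bars are list medians. The renin-angiotensin list has a median of -0.63 and the leptin signalling list one of 0.20, against -0.01 over all genes (dotted line).

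Of 11 renin-angiotensin genes around Agt that were tested, 6 fell and 2 rose, with a median of -0.63, where 19.0% of all genes fell and 15.5% rose. Enpep, the aminopeptidase that trims angiotensin II, had signals of 1064 ± 284 in 10-week pools, against 3068 ± 623 in 5-week pools (SD, n = 3 each), a log2 difference of -1.51 (adjusted p = 0.000841). Ace, which makes angiotensin II, fell by 1.17 (adjusted p = 0.00226). Agtr1a, its main receptor, fell by 0.63 (adjusted p = 0.00508). The endopeptidase gene Mme fell by 1.01, and the mast cell protease genes Cpa3 and Cma1 fell by 0.86 and fell by 0.63, the second of which no longer passed without a filter (adjusted p = 0.0679). Against this direction, Anpep, an aminopeptidase found on many epithelia, rose by 1.01 (adjusted p = 0.000404) and Atp6ap2, the prorenin receptor and a proton pump subunit, by 0.75. Agtr1b, Agtr2, Mas1 and Ctsg were under the filter, and Ren1 and Lnpep were not analysed here.

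Downstream of leptin the list was mixed. Of 17 genes tested, 4 rose and 2 fell, with a median of 0.20, a share near the 34.5% of all genes that passed. Without a filter 3 rose, with Stat3, the factor that the receptor activates, no longer passing (adjusted p = 0.0895), and without any one of 10-week pools 1 and 2 and 5-week pool 2 there were 2. Stat5a, a transcription factor that prolactin also activates, rose by 0.77 (adjusted p = 0.001), the phosphatase gene Ptpn2 by 0.63 (adjusted p = 0.0145) and the adaptor gene Gab1 by 0.65 (adjusted p = 0.0217). Leprotl1, a relative of Leprot, had a log2 difference of -1.0 (adjusted p = 0.00139), or -0.62 with its probe sets averaged (adjusted p = 0.00588). The call of Gab1 ended without any one of 10-week pools 1 and 2 and 5-week pool 2 (adjusted p = 0.0634 to 0.0708) and when its probe sets were averaged (0.0525). Jak2, the kinase bound to the receptor, had a difference of 0.27 (adjusted p = 0.112), and Socs3, its feedback inhibitor, one of 0.13 (adjusted p = 0.659).

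Downstream of adiponectin, 5 of 19 genes fell and 3 rose, with a median of -0.15, where 34.5% of all genes passed in either direction. Without a filter 3 fell, and without 1 pool 2 to 5, with 2 lower without 10-week pool 1 or 5-week pool 2. Subunits of AMP-activated kinase differed in direction. The beta subunit gene Prkab2 fell by 0.92 (adjusted p = 0.00261), the gamma subunit gene Prkag2 fell by 0.64 (adjusted p = 0.0119) and the alpha subunit gene Prkaa1 fell by 0.59 (adjusted p = 0.0202). The other alpha subunit gene, Prkaa2, rose by 0.86, with signals of 2543 ± 165 in 10-week pools, against 1393 ± 166 in 5-week pools (SD, n = 3 each) (adjusted p = 0.000945). The gamma subunit gene Prkag1 also rose, by 0.50 (adjusted p = 0.00647), and the beta subunit gene Prkab1 had a difference of -0.02 (adjusted p = 0.932). The Prkaa1 call ended without any one of 10-week pools 1 and 2 and 5-week pools 2 and 3 (adjusted p = 0.0531 to 0.0649). Cdh13, which binds large adiponectin multimers at the cell surface, had a difference of 0.23 (adjusted p = 0.201), and the adaptor gene Appl1 one of -0.43 (adjusted p = 0.0953).

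Genes that fold and modify secreted proteins such as adiponectin moved in both directions. Of 11, 5 rose and 4 fell (15.5% and 19.0% of all genes), with a median of 0.29 but a mean of -0.06. Plod3, a lysine hydroxylase and glycosyltransferase, rose by 0.75 (adjusted p = 0.00113). Ero1b, an oxidase of the endoplasmic reticulum, rose by 0.90 (adjusted p = 0.00125). Erp44, which holds unassembled adiponectin in the secretory pathway, rose by 0.61 (adjusted p = 0.00158), but by 0.25 with its probe sets averaged (adjusted p = 0.0579). P4ha1, a prolyl hydroxylase of collagen-like proteins, fell by 1.71 (adjusted p = 0.000244). These genes act in every secretory cell of the gland.

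Of 13 other adipokines tested, 7 fell and 3 rose, with a median of -1.02, where 19.0% of all genes fell and 15.5% rose. Without a filter 6 fell, with Rbp4, a retinol carrier gene, no longer passing (adjusted p = 0.0569). Nnat, neuronatin, had signals of 1932 ± 448 in 10-week pools, against 6371 ± 952 in 5-week pools (SD, n = 3 each), a log2 difference of -1.72 (adjusted p = 0.000218). Retnla, a resistin relative made by macrophages and fat, fell by 1.02 (adjusted p = 0.000237). Rarres2, the gene of the chemoattractant chemerin, fell by 1.53 (adjusted p = 0.000298). Apln, the gene of the peptide apelin, had signals of 3933 ± 259 in 10-week pools, against 1281 ± 229 in 5-week pools (SD, n = 3 each), a log2 difference of 1.61 (adjusted p = 0.000126).

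Among the C1q/TNF-related proteins, which share the fold of adiponectin, 3 of 7 fell and none rose (3 and 0 at an unadjusted p under 0.05, limma), with a median of -0.13, where 19.0% of all genes fell. C1qtnf12, the gene of adipolin, had signals of 2215 ± 236 in 10-week pools, against 5630 ± 427 in 5-week pools (SD, n = 3 each), a log2 difference of -1.34 (adjusted p = 0.000105), or -0.82 with its probe sets averaged (adjusted p = 0.00154). C1qtnf9 fell by 0.91 (adjusted p = 0.00766) and C1qtnf6 fell by 0.99 (adjusted p = 0.0249). The C1qtnf6 call ended without any one of 10-week pool 2 and 5-week pools 1 and 3 (adjusted p = 0.073 to 0.083).

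Transcription factors of fat cells fell in 8 of 16 cases and rose in 3, with a median of -0.23, where 19.0% of all genes fell and 15.5% rose. Without a filter 7 fell, and without 1 pool 6 to 8 fell and 2 or 3 rose. Ebf1 fell by 1.34 (adjusted p = 0.000137) and Ebf2 fell by 1.16 (adjusted p = 0.0013), both factors of adipocyte commitment. Mlxipl, a sensor of glucose metabolites, fell by 1.81 (adjusted p = 0.000333). Pparg, the master regulator of fat cells, fell by 1.24 (adjusted p = 0.00351), and Cebpa, which activates Lep and Adipoq in cultured fat cells, fell by 0.52 (adjusted p = 0.0268, or 0.0553 without a filter). Klf5 rose by 0.63 (adjusted p = 0.023), but not without any one of 10-week pool 1 and 5-week pools 2 and 3 (adjusted p = 0.0513 to 0.0671), nor with its probe sets averaged (0.0507).

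The genes with profiles nearest to the 3 that fell were found by the root mean square difference of log2 values over the 6 pools, each gene centred on its own mean. Nearest to Agt were Eml4 and Tmeff2 (0.10 each) and Mycl (0.12). The Mycl difference of -2.77 became -1.24 with its probe sets averaged and -1.82 with an offset of 100. The 10-week means of Eml4, 60.6, and Mycl, 21.4, are below the filter cutoff of 107. Both genes were thus tested because of their 5-week signals. The 10-week signals of Mycl, 15.7 to 30.0, lie below the offset of 32, so its difference and its nearness to Agt depend on that offset. Tmeff2, a transmembrane protein gene, had signals of 216.9 ± 36.7 in 10-week pools, against 1439 ± 129 in 5-week pools (SD, n = 3 each). Nearest to Lep were Rgl1 and Fam107a (0.08 each) and Dock11 (0.13), all highest in 5-week pool 2. The call of Fam107a ended without a filter (adjusted p = 0.077) and without any one of pools 1 and 2 of either age (0.0663 to 0.116). Nearest to Adipor2 were Pyurf, Jag2 and Dip2a (0.05 each), and the difference of Dip2a became -0.26 with its probe sets averaged (adjusted p = 0.0822).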

How the data were processed

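Total RNA was labelled with biotin-UTP and hybridised to 6 arrays, per the labels, 1 for each pool. The values deposited by the authors are linear signal intensities, with a mean of 500.0 on every array once the lowest and highest 2% of probe sets are left out, as tested on the values. The sources used here name no signal algorithm. Replicate numbers follow accession order and pair nothing.

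The 45101 probe sets include 64 controls, which were dropped. Of the rest, 34945 had a single symbol, 932 several and 9160 none. Of the single symbols, 34741 matched RefSeq genes of GRCm38.p6, whose symbols were used. Signals under 1 were set to 1 and log2(signal + 32) was taken. Array medians lay within 0.118 (log2), inside a tolerance of 0.2, so no normalization was added. Probe sets in the lowest 40% by linear mean were left out. limma 3.58.1 in R 4.3.3 (lmFit, eBayes with a variance trend) was fitted on age, tested on simulated data first. A gene was represented by its brightest probe set. Named genes are the members and, from each list, the 3 with the lowest adjusted p in its commoner direction plus its biggest opposite call (others that are named were chosen after their values were seen), and the 3 nearest profiles of each called member. The members and lists were chosen with earlier results of these data known. Alternatives changed the offset, filter, normalization, variance model, weights, covariates and probe sets of a gene, and left out each pool. Plots used Python 3.11.15 and matplotlib 3.10.9.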

Additional observations from a re-analysis of the deposited data

How the results depend on the processing

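The calls of Agt and both Adipor2 probe sets held under every change of offset, filter, normalization, variance model and weights and without any 1 pool, and that of Lep under all of these except without 10-week pool 2. The Agt difference ran from -2.97 to -2.14 over all alternatives. With the adipocyte marker mean as covariate, 54 probe sets, 32 genes and 0 member probe sets passed in limma (3639, 1999 and 2 at an unadjusted p under 0.05), against 7847, 4494 and 4 without it. With the skeletal muscle marker mean as covariate, 2889, 1744 and 2 passed. Both means did not overlap between ages, so they are confounded with age. With the adipocyte covariate, Gab1 (-0.15), Klf5 (-0.06) and Fam107a (0.28) changed sign, and so did Adipoq (0.07), which had not passed without it. Without 1 pool, 5683 to 6513 probe sets, 3319 to 3780 genes and 3 to 5 member probe sets passed. A filter of the same size on mean log2 values, added after the data were seen, gave 7774, 4454 and 4. Of 916 comparisons of a named gene or member with an alternative, 841 kept their side of the threshold and 70 lost a call. Another 2 gained a call, and 3 changed sign from a call. The sign change of Adipoq counts among the 841, as it passed in neither fit. No paired analysis was possible because replicate numbers come from accession order alone. Dim signals limit the Lepr probe sets and Agt at 10 weeks, and very bright ones limit Adipoq.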

Other observations

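Several further genes of fat and its precursors, picked after their values were seen, differed with age. Dlk1, the preadipocyte factor that blocks fat cell maturation, had signals of 132.1 ± 7.54 in 10-week pools, against 961.9 ± 127.7 in 5-week pools (SD, n = 3 each), a log2 difference of -2.59 (adjusted p = 3.17e-05). Gas6, a ligand of TAM receptors, had 3729 ± 754 in 10-week pools, against 10179 ± 1535 in 5-week pools (SD, n = 3 each). In the other direction, Angptl4, an inhibitor of lipoprotein lipase, rose by 0.89 (adjusted p = 0.00113) and Tnf, an inflammatory cytokine gene, rose by 1.61 (adjusted p = 0.00317). The 5-week mean of Tnf, 90.8, is below the filter cutoff of 107, so it was tested because of its 10-week signals. Without a filter Tnf still passed in limma (adjusted p = 0.0089), but the size of its rise is uncertain. Nampt, an adipokine that is also an enzyme of NAD synthesis, had signals of 2350 ± 227 in 10-week pools, against 2353 ± 313 in 5-week pools (SD, n = 3 each) (log2 difference 0.00, 95% interval -0.28 to 0.29).

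Agtr2, the angiotensin receptor most used in fetal tissue, was under the filter. Its signals were 20.7 ± 15.3 in 10-week pools, against 127.6 ± 42.8 in 5-week pools (SD, n = 3 each), and without a filter its difference was -1.61 (adjusted p = 0.0108). In that fit 16.3% of 45037 probe sets passed. The 10-week signals of Agtr2, 3.2 to 31.5, lie below the offset of 32, which sets much of the size of this difference.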
